A study of Mus musculus with 2 samples.

Results

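The genes described here encode the integrins, the alpha and beta chains that join cells to matrix and to other cells, and the laminins, the alpha, beta and gamma chains of the main cell-binding protein of basement membranes. They were picked by a pattern of gene symbols and not by a measured value, though with earlier results of these data known. Of the 19465 genes in the matrix 37 matched, 26 integrins and 11 laminins. A gene was called measured when it had 50 or more unique molecular identifiers (UMIs, counts of single captured molecules) over both sections, which 35 did. Lama1 with 78 and Itgb6 with 73 UMIs lay just inside that limit, whereas Itgae with 35 and Lamb3 with 32 lay outside it and are not described further.

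Expression was mapped with Visium CytAssist, in which ligated pairs of gene probes are carried from a fixed section onto a grid of barcoded spots, each a small region that can hold several cells. Both tumours were B16.F10, a pigmented mouse melanoma line, taken at day 15, at like sizes, from untreated mice of 8 to 16 weeks, and cut from fixed, paraffin-embedded tissue at 10 µm. The WT section came from a mouse labelled wild-type and Csnk2bfl/fl, that is, with floxed Csnk2b and no Cre named, and the KO section from a Foxp3-Cre x CK2b-fl/fl mouse, in which Cre driven by Foxp3 acts in regulatory T cells, the CD4 cells that restrain other immune cells. Both mice carry the floxed gene, the tumour cells do not, and they come from 1 cell line. There was 1 section per genotype, so no difference between sections has a replicate check, no p-value is given, and every 95% interval covers counting error only. Each section was also cut into 4 quadrants, and their lowest and highest values show how uneven it was.

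The WT section had 3066 spots, 88735936 UMIs and a median of 26818.5 UMIs per spot, and the KO section had 2746 spots, 94422680 UMIs and a median of 36769 UMIs. Csnk2b itself was at 392 CPM, counts scaled to the total of the section, in both sections, a ratio of KO over WT of 0.998 (0.984 to 1.01), and this sum over all cells does not test a deletion in regulatory T cells. Melanocytic genes, 12 in number, were abundant and summed to 46730 CPM in WT and 54332 CPM in KO. The sections differed in what else they held. The 13 fibroblast and matrix genes summed to 13108 CPM in WT and 1641 CPM in KO, the 14 macrophage genes to 1493 and 930 CPM, the 14 T cell genes to 33.6 and 89.8 CPM, and the 14 skeletal muscle genes to 160 and 400 CPM. No gene of these lists was at 0 in either section, and the part of these differences in the results below was not tested. The 4 Y-linked genes looked at had 0 UMIs in WT and 1477 in KO, a difference that the labels do not mention and that cannot be told apart from genotype. The sections share 2138 barcodes, which name grid positions and not cells.

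An integrin is a pair of 1 alpha and 1 beta chain, and the pair sets what is bound. Itgb1 pairs with many alphas to bind collagen, laminin or fibronectin, Itgav pairs with several betas to bind the RGD motif of fibronectin and vitronectin, and Itgb2 pairs with the leukocyte alphas, giving LFA-1 with Itgal and Mac-1 with Itgam. Laminins are trimers, of which those with Lama4 or Lama5 are typical of vessel walls and those with Lama2 of muscle and nerve. Spots hold mixtures, so fewer cells of a type and less RNA per cell cannot be told apart, and probe counts of different genes were not compared in level.

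The sequence before the start site is shown for 3 of the members found below to be lower in KO, from the RefSeq promoter table (GRCm38.p6, the assembly that mm10 denotes), and for Itgax, which lies next to Itgam on chromosome 7 and had a ratio of 0.782. The last bases of the Itgax window lie inside the annotated gene. The table matched 23 of the 37 members, with 26 start sites. Each sequence is the 250 bases before the start, 5′ to 3′ on the gene's plus strand: chr7:128062390-128062639 for Itgam, chr7:128129300-128129549 for Itgax, chr9:62677605-62677854 for Itga11, and chr16:33829415-33829664 for Itgb5. Capitals mark GAGGAA or its reverse complement TTCCTC, a core that PU.1, an ETS-family factor of myeloid cells, can bind.

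Itgam: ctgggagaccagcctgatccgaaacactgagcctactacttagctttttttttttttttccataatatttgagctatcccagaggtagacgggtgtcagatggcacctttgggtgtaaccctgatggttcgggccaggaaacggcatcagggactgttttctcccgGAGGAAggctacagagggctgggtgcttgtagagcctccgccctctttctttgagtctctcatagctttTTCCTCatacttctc
Itgax: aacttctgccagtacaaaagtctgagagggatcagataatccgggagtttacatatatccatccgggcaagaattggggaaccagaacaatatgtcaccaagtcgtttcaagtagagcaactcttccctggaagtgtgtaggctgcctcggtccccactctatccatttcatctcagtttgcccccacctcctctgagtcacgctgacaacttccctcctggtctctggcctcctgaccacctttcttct
Itga11: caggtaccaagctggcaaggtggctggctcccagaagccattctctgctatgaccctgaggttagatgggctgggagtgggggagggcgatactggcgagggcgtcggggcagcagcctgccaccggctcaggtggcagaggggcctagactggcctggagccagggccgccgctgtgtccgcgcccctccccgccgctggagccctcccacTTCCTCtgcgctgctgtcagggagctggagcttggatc
Itgb5: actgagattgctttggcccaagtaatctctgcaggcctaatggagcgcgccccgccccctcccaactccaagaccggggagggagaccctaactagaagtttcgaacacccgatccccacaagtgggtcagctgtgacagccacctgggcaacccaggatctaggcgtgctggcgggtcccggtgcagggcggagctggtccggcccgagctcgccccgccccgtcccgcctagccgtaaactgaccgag

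The core was found 2 times before Itgam, at 84 and 15 bases before the start, 1 time before Itga11, at 38 bases, and not before Itgax or Itgb5. It was searched on both strands and lies before 23.3% of 32851 start sites in the table and before 13 of the 26 of members, so a match describes the sequence and is no evidence of binding.

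Between the sections, 5 of the 35 measured members were at least 2-fold lower in KO (4.85% of all measured genes were) and 3 were at least 2-fold higher (14.7% were). The lower ones were Itgam, Itga11, Itgb5, Itgb2 and Lamb1, and the higher ones Itgal, Itgad and Itgb6. Itgad and Itgb6 stayed at or under 2 times the probe background in both sections, so Itgal is the member above background on that side. In interior spots its ratio was 1.96, short of 2-fold. TMM scaling gave 8 lower (6.96% of all measured genes) and 1 higher (10.2%), with Itga2, Itga5 and Lama2 added to the lower ones. Among the 22 members with 500 or more UMIs, 4 were at least 2-fold lower (5.29% of all such genes) and Itgal was the 1 at least 2-fold higher (0.952%). The median log2 ratio of KO over WT was -0.13 over 25 integrins and -0.16 over 10 laminins, against 0.15 over all measured genes. Scaling by edgeR TMM factors lowered every log2 ratio by 0.22 and moved these medians to -0.35, -0.38 and -0.06. In all, 21 of the 35 members had a ratio below 1.

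**Figure D1:**
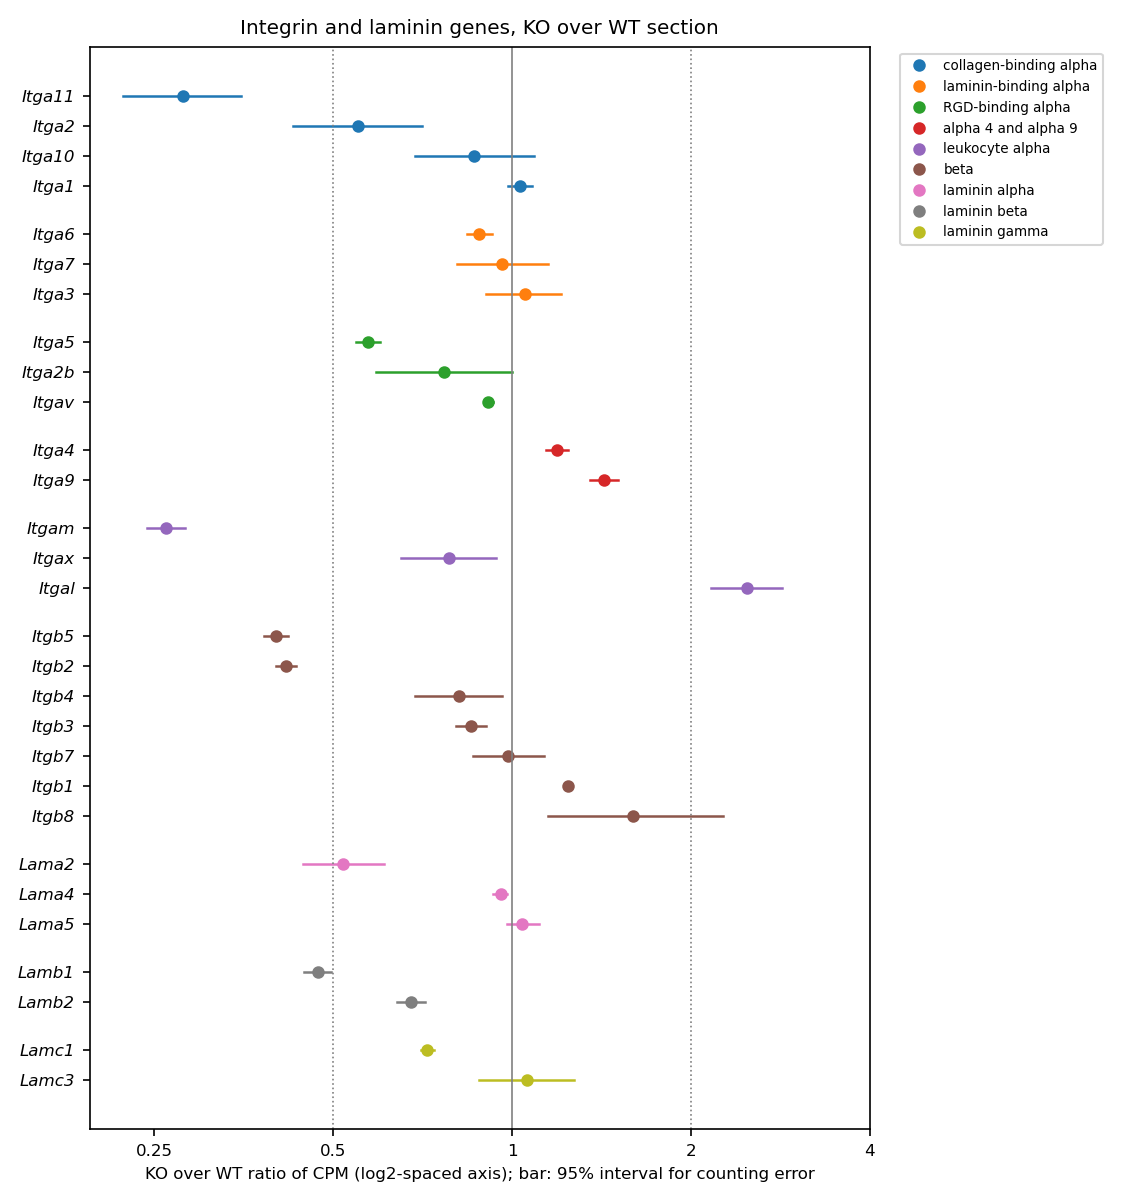
KO over WT ratio of CPM for the 29 integrin and laminin genes above 2 times the probe background in both sections, grouped by role, on a log2-spaced axis, with bars for the 95% counting interval. Itgam at 0.261, Itga11 at 0.279, Itgb5 at 0.400, Itgb2 at 0.416 and Lamb1 at 0.471 lie left of the 0.5 line, and Itgal at 2.48 lies right of the line at 2.

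Among the leukocyte alphas, Itgam and Itgal differed in opposite directions. Itgam, the alpha chain of Mac-1 on macrophages, monocytes and neutrophils, had 3374 UMIs (38.0 CPM) in WT and 938 UMIs (9.93 CPM) in KO, a ratio of 0.261 (0.243 to 0.281). Its quadrants spanned 6.75 to 135 CPM in WT and 3.50 to 31.0 CPM in KO, so the ranges overlapped and 1 part of the WT section held much of the signal. Itgal, the alpha chain of LFA-1, which T cells use to adhere, had 281 UMIs (3.17 CPM) in WT and 741 UMIs (7.85 CPM) in KO, a ratio of 2.48 (2.16 to 2.85). Its quadrants spanned 1.73 to 6.54 CPM in WT and 4.28 to 12.5 CPM in KO and overlapped too. Itgax, the CD11c chain of dendritic cells and some macrophages, had 262 and 218 UMIs and a ratio of 0.782 (0.650 to 0.939).

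The beta chains differed in both directions. Itgb2, the beta chain of these leukocyte integrins, had 7836 UMIs (88.3 CPM) in WT and 3469 UMIs (36.7 CPM) in KO, a ratio of 0.416 (0.400 to 0.433), with quadrants of 36.6 to 252 and 23.6 to 60.6 CPM. Itgb5, which joins Itgav to bind vitronectin, had 6543 UMIs (73.7 CPM) and 2788 UMIs (29.5 CPM), a ratio of 0.400 (0.383 to 0.419), with quadrants of 34.1 to 174 and 22.6 to 51.9 CPM. For both genes the highest WT quadrant stood far above every KO quadrant, while the lowest WT quadrant lay within the KO range. Itgb1 had 398 CPM in WT and 496 CPM in KO, a ratio of 1.24 (1.23 to 1.26), and all 4 KO quadrants, at 474 to 521 CPM, were above all 4 WT quadrants, at 370 to 451 CPM. It was the 1 member of 35 with quadrants wholly higher in KO, as 22.9% of all measured genes were, and 0 members had quadrants wholly lower, as 6.07% were. Under TMM scaling the Itgb1 ratio was 1.07. Itgb3 had a ratio of 0.853 (0.804 to 0.905), Itgb4 of 0.813, Itgb8, another partner of Itgav, of 1.60 (1.15 to 2.26) from 58 and 99 UMIs, and Itgb7, the partner of Itga4 on gut-homing lymphocytes, of 0.984.

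Of the alphas that bind matrix, Itga11, Itga2 and Itga5 had the lowest ratios. Itga11, the collagen-binding alpha typical of fibroblasts, had 340 UMIs in WT and 101 in KO, or 3.83 and 1.07 CPM, a ratio of 0.279 (0.221 to 0.350). With equal weight for each spot in place of each UMI its ratio was 0.624, which is no longer 2-fold. Itga5, the fibronectin-binding alpha, had 53.7 and 30.8 CPM, a ratio of 0.573 (0.547 to 0.600), and Itga2, another collagen-binding alpha, had 176 and 103 UMIs and a ratio of 0.550 (0.427 to 0.705). Itgav had 304 and 278 CPM, a ratio of 0.912. Itga2b, the platelet alpha, had 131 and 107 UMIs and a ratio of 0.768 (0.589 to 0.999). The 6 measured platelet genes had a median log2 ratio of -0.76, with 4 below 1 and 2 above. Itga10, a collagen-binding alpha of cartilage, had 162 and 149 UMIs and a ratio of 0.864. The collagen-binding Itga1 had 38.7 and 39.9 CPM, and the laminin-binding Itga3, Itga6 and Itga7 had ratios of 1.05, 0.880 and 0.962. Itga9, which binds tenascin, osteopontin and VCAM1, had 24.2 CPM in WT and 34.5 CPM in KO, a ratio of 1.43 (1.35 to 1.51), or 1.23 under TMM scaling. Itga4, which binds VCAM1 and fibronectin, had 45.2 and 53.8 CPM, a ratio of 1.19, or 1.02 under TMM scaling.

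The laminin chains did not differ alike. Lamb1 had 4101 UMIs (46.2 CPM) in WT and 2054 UMIs (21.8 CPM) in KO, a ratio of 0.471 (0.446 to 0.496), with quadrants of 20.8 to 127 and 15.3 to 38.5 CPM that overlapped. Lama2 had 452 and 250 UMIs, a ratio of 0.520 (0.444 to 0.608), just short of the 2-fold limit that Lamb1 just passed. Lamb2 had a ratio of 0.677, and Lamc1, the gamma chain of most laminins, had 152 and 109 CPM, a ratio of 0.720 (0.702 to 0.739). The vessel-type alphas stood nearer 1, with Lama4 at 120 and 115 CPM, quadrants of 108 to 163 and 114 to 116 CPM, and Lama5 at 23.0 and 24.0 CPM. Lamc3 had 228 and 256 UMIs and a ratio of 1.06. Ratios just above 1 turned below it under TMM scaling, to 0.886 for Itga1, 0.899 for Itga3, 0.895 for Lama5 and 0.907 for Lamc3. Lama1 and Lama3 and the integrins Itga8, Itgad and Itgb6 were not above 2 times the probe background in both sections, and their ratios are not read.

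The lower ratios moved toward 1 when spots rich in fibroblast and matrix genes were left out. These spots were the top 10% for those genes over both sections. Without them, 2492 of 3066 WT and 2738 of 2746 KO spots were left. Nearly all were thus taken from WT, so any gene higher in them would move up by this alone. The removal cannot show where the difference lies. In the spots left, 0 of the 35 members were at least 2-fold lower (1.16% of all measured genes were), a share near that of all genes. Itgam was then at 0.651 (0.597 to 0.710), Itgb2 at 0.720, Itgb5 at 0.611, Itga11 at 0.677 and Lamb1 at 0.776, while Lama2 was at 1.22 (0.998 to 1.48). Within melanocytic-rich spots, those at or above the median melanocytic share over both sections (1272 WT and 1634 KO spots), Lamb1 was at 1.01 (0.922 to 1.11), Itgam at 0.511 (0.414 to 0.629), Itgb2 at 0.666, Itgb5 at 0.648 and Itga5 at 0.705. Itgal kept a higher KO level there, with a ratio of 2.65 (2.07 to 3.43), Itgb1 was at 1.28 and Itga9 at 1.41. Itgb3 at 1.16, Lama4 at 1.08, Itgax at 1.06, Itgb7 at 1.34 and Lama2 at 1.38 also had ratios above 1 there, though below 1 over all spots. Without spots in the top 10% for macrophage genes Itgam was at 0.200 (0.181 to 0.221), no nearer to 1 than over all spots. Divided by the UMIs of the macrophage list, the KO over WT ratio was 0.419 for Itgam and 0.667 for Itgb2. For Itgax it was 1.25. Divided by those of the T cell list, it was 0.927 for Itgal, 0.368 for Itgb7 and 0.446 for Itga4. Divided by those of the fibroblast list, it was 2.23 for Itga11, 3.20 for Itgb5, 3.76 for Lamb1 and 4.15 for Lama2. The last 4 members thus differed less between sections than the fibroblast list did, and Itgam differed more than the macrophage list. In WT, Itga4 had 4011 UMIs and the whole T cell list 2981, and Itgb7 was also higher in macrophage-rich spots. Their values by the T cell list are therefore not levels per T cell.

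**Figure D2:**
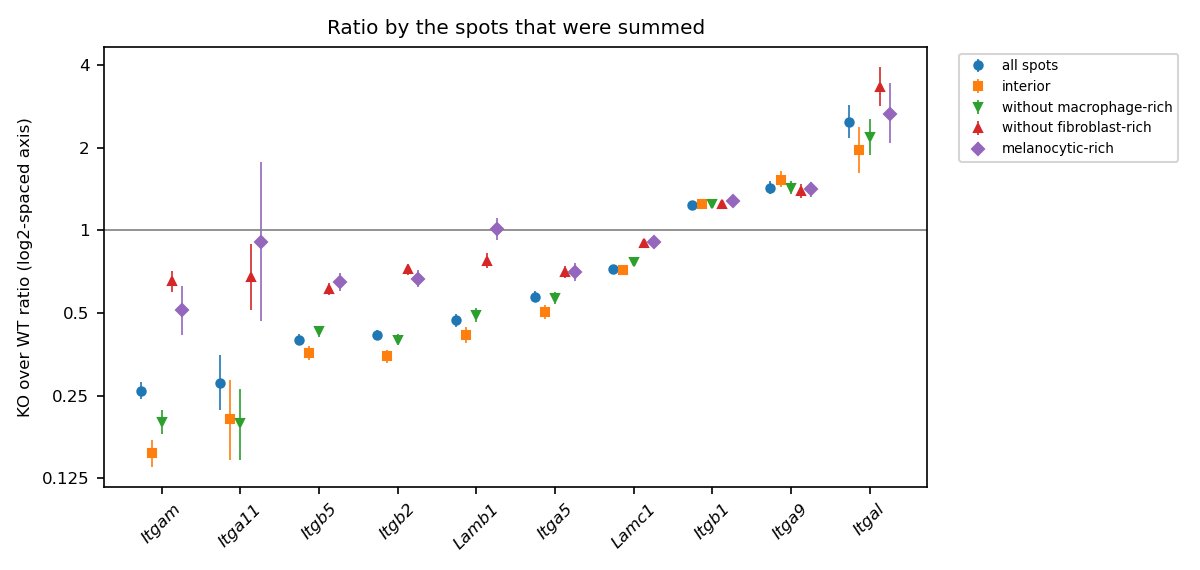
KO over WT ratio of 10 members on a log2-spaced axis for 5 sets of spots, with bars for the 95% counting interval. The ratio of Lamb1 goes from 0.471 over all spots to 1.01 in melanocytic-rich spots, that of Itgam from 0.261 to 0.511, and Itgb1, Itga9 and Itgal stay above 1 in each set.

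To place the members, spots were ranked within each section by the share of UMIs from marker lists that hold no member. The 10% of spots highest for endothelial (vessel), fibroblast, macrophage, T cell or muscle genes were set against the other spots of the section. Melanocytic-rich spots stood for tumour. A member was assigned to a compartment when it was 1.5-fold or more higher there in both sections. These classes overlap: 31.9% of macrophage-rich spots in WT and 87.3% in KO were also fibroblast-rich, and 29.0% and 37.5% of vessel-rich spots were also T cell-rich. Macrophage-rich spots were shallow, with medians of 11211 UMIs in WT and 6963 in KO.

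**Figure D3:**
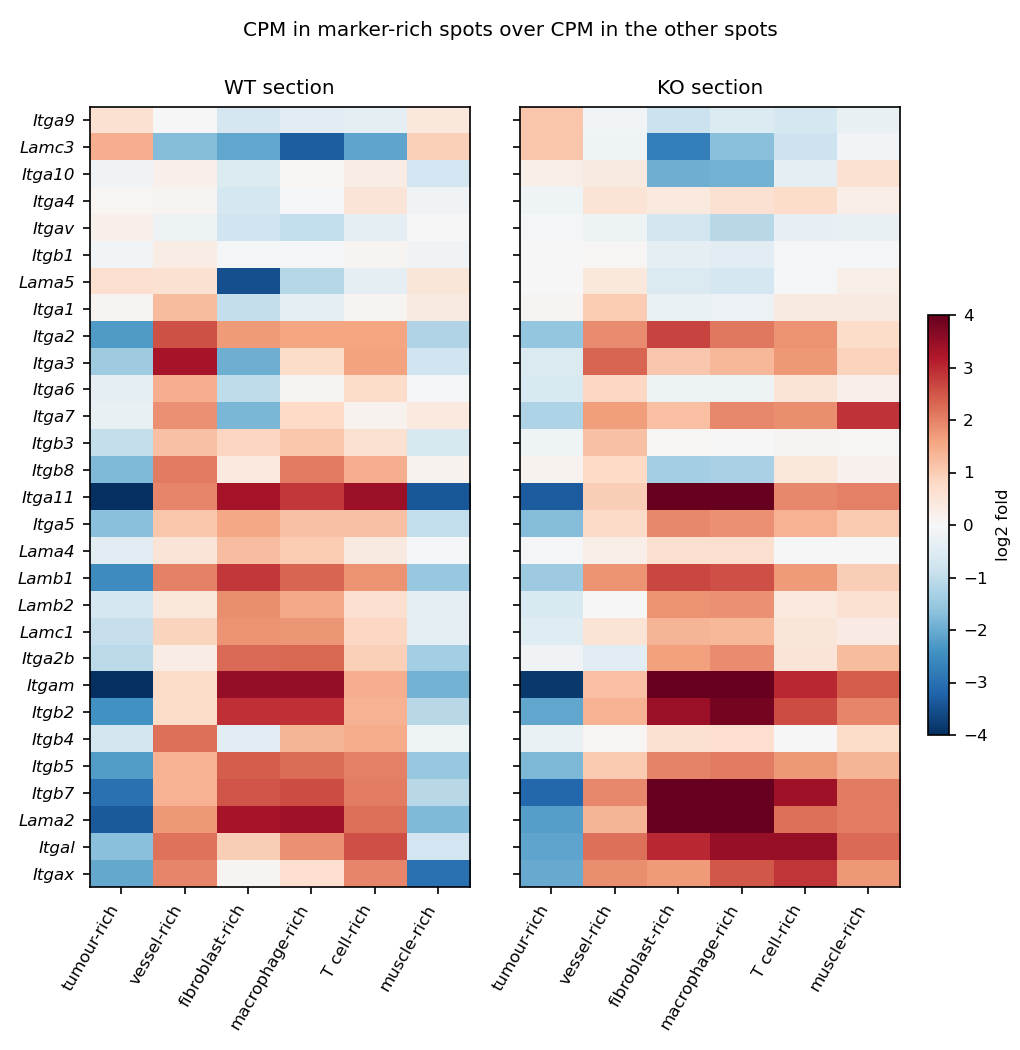
Log2 fold of CPM in marker-rich spots over the other spots of the same section (colour, limited to 4 in either direction) for the 29 members above 2 times the probe background in both sections, by compartment. Itga9 and Lamc3 are higher in tumour-rich spots, Itga3 and Lamb1 in vessel-rich spots, and Itgam, Itgb2 and Itga11 in macrophage- and fibroblast-rich spots of both sections. Itga7 is among the members higher in the muscle-rich spots of KO.

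Tumour spots were rich in few members. Itga9 and Lamc3, 2 of 35, were higher in melanocytic-rich spots of both sections (2.15% of all measured genes were) and 14 of 35 were lower (17.1%). Itga9 had 28.4 CPM in these spots and 18.7 CPM elsewhere in WT, 1.52-fold (1.39 to 1.66), and 39.9 and 18.3 CPM in KO, 2.18-fold (1.97 to 2.42). Lamc3, a gamma chain, was 2.76-fold higher (2.01 to 3.85) in WT and 2.18-fold (1.52 to 3.23) in KO, from 178 and 222 UMIs. The most abundant members by UMIs, Itgb1 and Itgav, were close to even: Itgb1 had 385 CPM in melanocytic-rich spots and 415 CPM elsewhere in WT and 495 and 499 CPM in KO, and Itgav had 324 and 278 CPM in WT and 276 and 284 CPM in KO. Itgam lay at the other end, with 4.40 CPM in melanocytic-rich spots and 81.4 CPM elsewhere in WT and 2.25 and 33.0 CPM in KO. Lama5 was 1.57-fold higher in these spots in WT and 1.02-fold in KO, below the limit.

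Vessel-rich spots held more of 21 of the 35 members in both sections, against 15.9% of all measured genes, and 0 were lower in both (1.43%). Itga3, the laminin-binding alpha, had 23.7 CPM in vessel-rich spots and 2.42 CPM elsewhere in WT, 9.77-fold (7.84 to 12.1), and 15.3 and 3.03 CPM in KO, 5.04-fold (4.04 to 6.27). Lamb1 had 153 and 38.1 CPM in WT, 4.02-fold (3.74 to 4.33), and 61.9 and 17.9 CPM in KO, 3.45-fold (3.12 to 3.82). Itga2 was 5.88-fold and 3.74-fold higher, Itga1 2.41-fold and 2.01-fold, Itgb3, which pairs with Itgav on angiogenic vessels, 2.23-fold in both sections, and Itga6 2.74-fold and 1.77-fold. Lama4 was under the limit in both sections, at 1.44-fold in WT and 1.19-fold in KO, and Lama5 in KO alone, at 1.54-fold in WT and 1.35-fold in KO. Itgb4, the partner of Itga6, was 4.59-fold higher in WT vessel-rich spots (3.50 to 5.96) and 1.06-fold in KO (0.664 to 1.61). Inside the melanocytic-rich spots alone Lamb1 was 3.75-fold higher in the vessel-rich spots of WT (3.19 to 4.40) and 3.59-fold in KO (3.14 to 4.10), Itga3 3.37-fold and 3.63-fold and Itgb3 1.62-fold and 2.22-fold. Itga1 and Itga6 were under the limit in WT there, at 1.39-fold and 1.37-fold, and at 1.72-fold and 1.59-fold in KO. Leukocyte members lay near vessels too, with Itgal 4.49-fold and 4.59-fold higher and Itgax 3.86-fold and 3.64-fold.

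**Figure D4:**
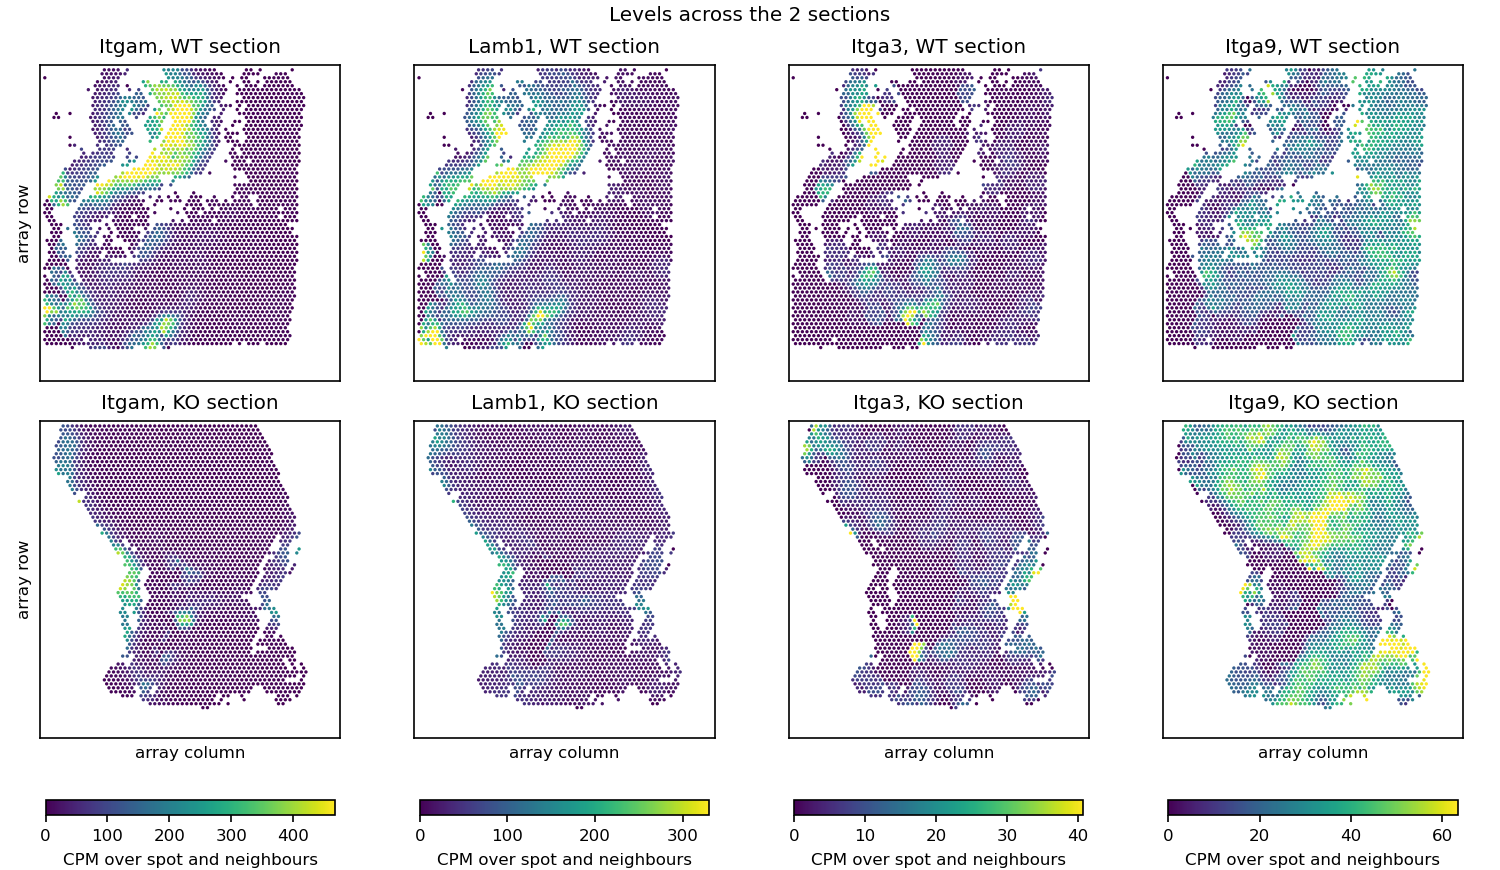
Itgam, Lamb1, Itga3 and Itga9 across the WT and KO sections, as CPM summed over each spot and the spots within 2 steps, coloured up to the 99th percentile over both sections. Itgam and Lamb1 are high in a band in the upper part of WT and along the left edge of KO, Itga3 lies in small patches, and Itga9 is spread widely, with a low area in the lower middle of KO.

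Fibroblast-rich spots held more of 15 of the 35 members in both sections (21.9% of all measured genes), and 3 were lower, Itgav, Itga9 and Lamc3 (21.3%). Itga11 had 25.9 CPM there and 2.59 CPM elsewhere in WT, 10.0-fold (7.94 to 12.5), and 22.5 and 0.511 CPM in KO, 44.1-fold (29.3 to 66.7). Inside these spots the KO over WT ratio of Itga11 was 0.869 (0.619 to 1.21), an interval that holds 1. The fibroblast genes themselves summed to 124526 CPM in these spots of WT and 29006 CPM in those of KO, so the compared spots were not equally rich. Lamb1 was 7.07-fold higher in WT and 6.36-fold in KO, and Itgb5 5.36-fold and 3.95-fold. Lamc1 was 3.47-fold and 2.55-fold higher, Lamb2 3.65-fold and 3.50-fold, and Itga5 2.93-fold and 3.76-fold. With macrophage-rich spots left out, which left 11 of the 35 members higher in both sections, Lamc1 was 3.70-fold and 1.42-fold higher and Lamb2 3.51-fold and 1.41-fold, both under the limit in KO. Itga11 was then at 15.0-fold and 11.1-fold, Lamb1 at 8.28-fold and 3.43-fold and Itga5 at 3.96-fold and 4.17-fold. The level of Itga11 was then 27.3 CPM in WT and 4.46 CPM in KO, from 114 and 21 UMIs, so its ratio near 1 held only with macrophage-rich spots kept in. Lama2 had 34.0 CPM in all fibroblast-rich spots of WT and 35.1 CPM in those of KO, but 30.1 and 6.79 CPM with macrophage-rich spots left out. Itgb5 and Lamb1 were lower in KO in all fibroblast-rich spots, at 108 against 321 CPM and 122 against 247 CPM. With macrophage-rich spots left out they were at 82.8 against 317 CPM and 59.2 against 241 CPM. Lama5 went the other way in WT, with 2.13 CPM in fibroblast-rich spots and 24.2 CPM elsewhere, a fold of 0.0878 (0.0420 to 0.162), and was at 0.673 in KO.

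Macrophage-rich spots held more of 20 of the 35 members in both sections (27.1% of all measured genes), and 3 were lower, Itgav, Lama5 and Lamc3 (22.9%). Itgam had 305 CPM there and 26.5 CPM elsewhere in WT, 11.5-fold (10.7 to 12.3), and 195 and 5.31 CPM in KO, 36.7-fold (32.2 to 41.8). Itgb2 had 528 and 69.4 CPM in WT, 7.60-fold, and 397 and 27.7 CPM in KO, 14.3-fold. Inside macrophage-rich spots the KO over WT ratio was 0.638 (0.571 to 0.713) for Itgam and 0.753 (0.695 to 0.815) for Itgb2, nearer 1 than over the whole sections. The macrophage genes themselves summed to 9843 CPM in these spots of WT and 15074 CPM in those of KO, so the compared spots were not equally rich. With the fibroblast-rich spots of each section left out, Itgam was 15.5-fold higher in macrophage-rich spots of WT and 13.4-fold in KO, and Itgb2 8.86-fold and 6.38-fold. In fibroblast-rich spots with the macrophage-rich ones left out, Itgam was 16.9-fold higher in WT and 8.53-fold in KO, and Itgb2 8.61-fold and 3.44-fold. In WT, Itgam was thus as high in the latter spots, at 252 CPM, as in the former, at 251 CPM. Lama2 was 10.6-fold and 19.5-fold higher in macrophage-rich spots, and 13.4-fold and 2.82-fold with the fibroblast-rich spots left out.

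**Figure D5:**
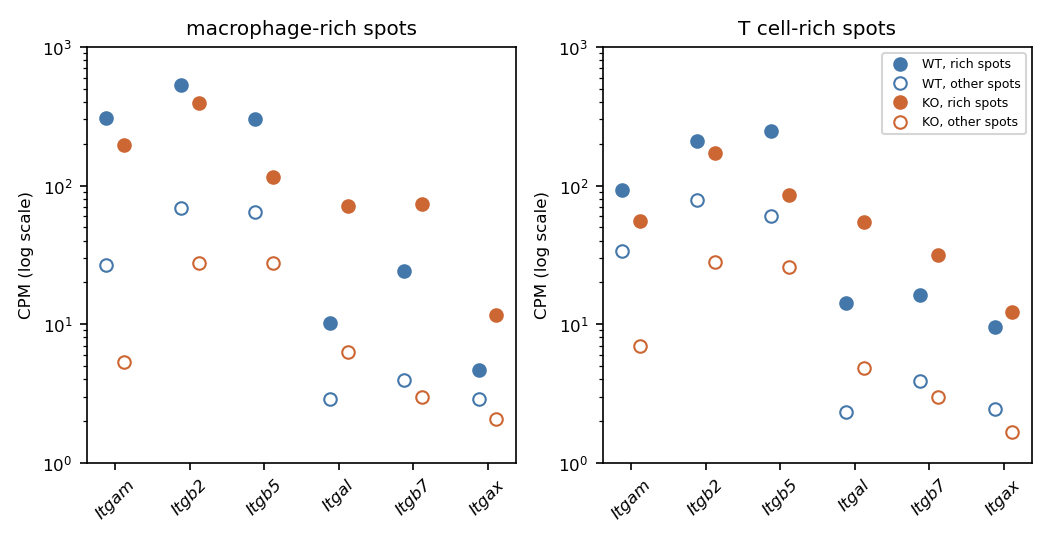
CPM on a log scale of 6 members in macrophage-rich (left) and T cell-rich (right) spots (filled) and in the other spots (open) of the WT and KO sections. Itgam lies lower in KO than in WT inside and outside macrophage-rich spots, and Itgal lies higher in KO than in WT inside and outside T cell-rich spots.

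T cell-rich spots held more of 14 of the 35 members in both sections (20.5% of all measured genes), and 1, Lamc3, was lower (4.27%). Itgal had 14.1 CPM there and 2.33 CPM elsewhere in WT, 6.03-fold (4.64 to 7.79), and 54.7 and 4.83 CPM in KO, 11.3-fold (9.77 to 13.1). Itgb7 was 4.12-fold and 10.5-fold higher and Itgax 3.86-fold and 7.33-fold. Itga4 stayed under the limit in WT, at 1.43-fold against 1.65-fold in KO. With macrophage-rich spots left out, Itgal was 5.66-fold and 6.10-fold higher, closer to each other than over all spots.

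No member was higher in muscle-rich spots of both sections (0 of 35, with 3.82% of all measured genes) and 0 were lower (1.01%), and the sections could not be set side by side there. Muscle genes summed to 600 CPM in the muscle-rich spots of WT, of which 64.8% of spots were melanocytic-rich, and to 5099 CPM in those of KO. In KO, Itga7, the laminin-binding alpha of muscle fibres, had 15.3 CPM in these spots and 2.06 CPM elsewhere, 7.44-fold (5.64 to 9.73), and 4.61-fold (3.38 to 6.22) once macrophage- and fibroblast-rich spots were left out. In WT it was 1.31-fold (0.894 to 1.87). Itga7 was not alone there: 20 of the 35 members were 1.5-fold or more higher in muscle-rich spots of KO, and 1 in WT. The median log2 fold of members in KO was 0.76, against 0.05 over all measured genes. Itga7 was also 3.20-fold or more higher in vessel-rich spots of both sections. In KO macrophage-rich spots outside fibroblast-rich ones it was 5.33-fold higher (3.92 to 7.17), so its rise was not particular to muscle-rich spots.

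Partner chains were set side by side over blocks of 6 rows by 12 columns of the grid that held 10 or more spots, 102 in WT and 84 in KO. Blocks of a section share a library and differ in depth, so each Pearson r of log2 CPM is a description. Itgam and Itgb2 had r of 0.70 in WT and 0.88 in KO, and Itgal and Itgb2 0.26 and 0.77. Lama2 and Lamc1 had 0.63 and 0.67, and Lamb1 and Lamc1 0.50 and 0.71. Lama4 and Lamc1 had 0.19 and 0.32, and Itgav and Itgb1 0.18 and 0.60. The thinnest WT block held 5563 UMIs. With blocks of 200000 or more UMIs (88 and 76), a limit chosen after the first values were seen, r was 0.95 in WT and 0.86 in KO for Itgam and Itgb2, 0.50 and 0.68 for Itgal and Itgb2, and 0.21 and 0.38 for Itgav and Itgb1. For the laminin pairs it was 0.85 and 0.56 for Lama2 and Lamc1, 0.87 and 0.77 for Lamb1 and Lamc1, and 0.88 and 0.23 for Lama4 and Lamc1. The genes most like the most abundant assigned members over blocks were Vsir, Msr1 and Nrros for Itgb2 in WT (r of 0.92, 0.89 and 0.88), Hspg2, Git2 and Ppp1r18 for Lamc1 in WT (0.93, 0.92 and 0.90), and Eps8, Hmgcs1 and Dhrs2 for Itga9 in KO (0.84 for each). In the other section Itgb2 had r of 0.86 with Vsir and 0.91 with Nrros, and Itga9 had 0.31 with Eps8. The authors' Moran's I, a score of how far a gene is clustered in space, had a median of 0.161 over members and 0.087 over all measured genes in WT, and of 0.098 and 0.075 in KO.

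The genes that work with the members were listed by role. Of all measured genes, 4.85% were at least 2-fold lower in KO and 14.7% at least 2-fold higher. No list below had a share of higher genes above the latter. Of 12 matrix ligands of integrins, 7 were at least 2-fold lower and 1 at least 2-fold higher in KO, with a median log2 ratio of -1.35: Fn1, fibronectin, had 596 and 168 CPM and Thbs1, thrombospondin, 375 and 62.7 CPM. Without fibroblast-rich spots the ratio of Fn1 went from 0.282 to 0.754 and that of Thbs1 from 0.167 to 0.333. The ligands Lgals3bp and Spp1, both with more UMIs than Thbs1, were lower by less than 2-fold, at 0.718 and 0.655. The higher ligand, Fgg, did not exceed 2 times the background in either section, and Vtn, a lower one, did not in KO. Of 22 activators and adaptors, 3 were at least 2-fold lower and 0 higher, with a median of -0.20. The lower ones were Apbb1ip, Fermt1 and Fermt3, the kindlin of blood cells, at 0.435 (0.403 to 0.470). Among them, Fermt1 did not exceed 2 times the background in KO. Of 11 ligands on cells, Thy1 at 0.327 was the 1 at least 2-fold lower, and the list had a median of -0.07; Cd47, a partner of several integrins, was at 0.955 and Jam2, a junction protein that binds Itga4, at 1.67 (1.55 to 1.81). Of 14 basement membrane genes, 2 were at least 2-fold lower and 1 higher, with a median of -0.19; Nid1, which links laminin to collagen IV, was at 0.361, Col15a1 at 0.483 and Col4a1, a chain of collagen IV, at 0.783, while Tinagl1, a matrix glycoprotein, was at 1.63. The higher one, Col4a3, did not exceed 2 times the background in either section. Of 11 other laminin receptors, Sgca, under 2 times the background, was the 1 at least 2-fold higher, the list had a median of 0.04, and Dag1, dystroglycan, was at 1.01, Sdc4, a syndecan, at 1.41 (1.38 to 1.44) and Utrn, utrophin, at 1.62 (1.58 to 1.66).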

How the data were processed

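For each section the authors deposited UMI counts per gene and spot, whole numbers, and per the file headers they used Space Ranger (2.1.0); the submitters' processing notes also name featureCounts and mm10, with no role for each. The authors deposited Moran's I per gene as a score, used as given. Genotypes came from the sample labels.

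Counts were summed per section and scaled to CPM. Ratios have exact conditional binomial (Clopper-Pearson) intervals at 95%, and log2 ratios add 0.5 to each count. Probe background is the median count of 15 genes of other tissues, 22 UMIs in WT and 48 in KO. Median-of-ratios factors came from DESeq2 1.42.0 and TMM factors from edgeR 4.0.16 in R 4.3.3; no model was fitted. Interior spots lie more than 2 grid steps from a position without tissue or from the frame. The interval step was tested on simulated counts.

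The members and lists were chosen with earlier results of these data known. Every member could be named. Of other genes, each list's 3 with the most UMIs and its highest and lowest ratio could be, and the 3 most correlated with the most abundant member assigned to a compartment. Fermt3, Apbb1ip, Col15a1, Vtn and Thbs1 fall outside this rule and were chosen after their values were seen. Spots left out for macrophage genes, classes of spots with overlaps left out and the UMI limit on blocks were also added after seeing the data. Gene positions and promoters come from RefSeq. Files on image scale and alignment were left out, and some genes of the lists are not reported here.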

Additional observations from a re-analysis of the deposited data

How the results depend on the processing

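The count of members at least 2-fold lower in KO, 5 (4.85% of all measured genes), was 8 with edgeR TMM factors (6.96%) or DESeq2 median-of-ratios size factors (7.04%). It was 9 with background taken off (10.8%), of which Itga8 and Lama3 were not above 2 times the background in KO. In melanocytic-rich spots (1.11%) or without fibroblast-rich spots (1.16%) it was 0, near the share of all genes. Counts in this section were of 35 members, but of 31 with background taken off and of 22 with 500 or more UMIs. The Lamb1 ratio of 0.471 was 1.01 in melanocytic-rich spots. The count at least 2-fold higher, 3, was 1 (Itgal) with TMM factors, size factors, background taken off or members with 500 or more UMIs. The median log2 ratio of integrins, -0.13, was -0.35 with TMM factors, -0.36 with size factors, -0.20 in interior spots, 0.08 in melanocytic-rich spots, -0.26 without muscle-rich spots, -0.00 without fibroblast-rich spots, -0.16 without macrophage-rich spots (chosen after seeing the data), -0.25 with background taken off, -0.09 with 500 or more UMIs and -0.16 with no filter on low counts. That of laminins, -0.16, ranged from -0.53 with background taken off to -0.03 in melanocytic-rich spots. The 2 members higher in tumour spots were 1 with narrower spot classes or a 2-fold limit (Lamc3) and 1 with wider classes or 500 or more UMIs (Itga9). The 21 higher in vessel spots were 13 with wider classes. Among the 22 members with 500 or more UMIs, 13 were higher there, a share like that over all 35. The 0 higher in muscle spots were 2 with narrower classes (Itga7 and Itgb6), and 1 with wider classes (Itgb6), in melanocytic-rich spots (Itgb8) and outside macrophage- and fibroblast-rich spots (Itgb6, chosen after seeing the data). The 20 higher in macrophage spots were 13 at a 2-fold limit and 9 in melanocytic-rich spots. The 14 higher in T cell spots were 9 in melanocytic-rich spots. With 500 or more UMIs they were 9 of 22, a share like that over all 35. The cause of these shifts was not tested. No paired analysis was possible because there is 1 section per genotype and no test. Members with few UMIs, such as Itgb6 (1.30 to 3.77), have wide intervals.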

Other observations

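Among the netrins, Ntn4, which binds laminin networks, had 666 UMIs in WT and 199 in KO, a ratio of 0.281 (0.238 to 0.329), and of 0.598 without fibroblast-rich spots and 1.07 (0.734 to 1.56) in melanocytic-rich spots. Ntng1 was the highest, with 16 UMIs in WT and 56 in KO, at or under 2 times the probe background.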
